A study of Mus musculus with 9 samples.

Results

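The genes described here are 7 named mouse aldo-keto reductases of subfamily 1C (Akr1c6, Akr1c12, Akr1c13, Akr1c14, Akr1c18, Akr1c19 and Akr1c20), called the family below. Akr1c21 is not in this set and is counted with the other aldo-keto reductases. The 7 genes were chosen by gene symbol, with the brightest probe set over the 9 arrays standing for each gene. Only probe sets annotated to a single symbol were used. Of the 7 genes, 6 had such a probe set, among 22180 genes measured in all. The remaining gene, Akr1c13, is annotated only on a probe set that it shares with Akr1c12. The choice of probe set used the mean level over the arrays, so levels are given as a description. The family was also picked with the rise of Akr1c18 in double KO livers already known, and the tests of that gene are not independent support for it.

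Liver RNA came from 3 groups of 3 individual female mice with 1 array each. The double KO mice lacked both nuclear receptor corepressors, SMRT and NCoR, in the liver. The SMRT KO mice lacked SMRT in the liver, and their NCoR allele is not given in the labels. The control mice were SMRT and NCoR fl/fl, with floxed alleles of both genes. All mice were euthyroid, of mixed 129SV/B6 background, 7 to 9 weeks old and on standard chow. The labels do not name the Cre driver, and the knockout genotypes were taken from the labels and not checked on the arrays. No group lacked NCoR alone, so loss of NCoR was compared only on livers labelled as lacking SMRT already.

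Aldo-keto reductases of this subfamily are soluble enzymes that use NADPH or NADH to reduce ketones on steroids and other substrates, or to oxidise the matching alcohols. They interconvert active and less active forms of progestins, androgens and estrogens, and in liver they take part in clearing steroids and foreign compounds. SMRT and NCoR hold the targets of nuclear receptors at a low level by recruiting histone deacetylases. The family therefore allows the question of whether neighbouring genes of like function moved together when the corepressors were absent.

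The 7 genes lie next to one another on mouse chromosome 13. In the RefSeq annotation (assembly GRCm38.p6) their order is Akr1c14, Akr1c18, Akr1c13, Akr1c19, Akr1c12, Akr1c6 and Akr1c20, with no other protein-coding gene between them. Upstream sequence was found in the RefSeq promoter table for 6 of the 7 genes, and Akr1c20 had no entry. The sequences of Akr1c18 and Akr1c14 are shown because these adjacent genes had the highest and the lowest fold change of the family when double KO livers were set against controls. Each is the 250 bases before the annotated start, 5′ to 3′ on the strand of the gene, at chr13:4150647-4150896 (minus strand) for Akr1c18 and chr13:4059341-4059590 (plus strand) for Akr1c14. Capitals mark the only run of 6 or more bases that matched in their alignment, which is 8 bases long.
Akr1c18: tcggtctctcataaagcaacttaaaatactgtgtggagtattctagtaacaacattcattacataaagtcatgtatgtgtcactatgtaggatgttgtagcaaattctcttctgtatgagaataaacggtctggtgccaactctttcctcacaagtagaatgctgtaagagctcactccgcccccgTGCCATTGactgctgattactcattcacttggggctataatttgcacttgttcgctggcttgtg
Akr1c14: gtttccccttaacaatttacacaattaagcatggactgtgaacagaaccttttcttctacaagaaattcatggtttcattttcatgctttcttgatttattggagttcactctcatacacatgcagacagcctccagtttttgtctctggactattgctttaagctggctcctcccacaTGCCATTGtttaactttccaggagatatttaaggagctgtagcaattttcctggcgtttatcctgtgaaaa

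The upstream sequences of Akr1c12 and Akr1c13 are shown because these are the genes that share a probe set. They lie at chr13:4279400-4279649 (minus strand) and chr13:4190937-4191186 (plus strand), and capitals mark the bases of each that did not match the other in their alignment.
Akr1c12: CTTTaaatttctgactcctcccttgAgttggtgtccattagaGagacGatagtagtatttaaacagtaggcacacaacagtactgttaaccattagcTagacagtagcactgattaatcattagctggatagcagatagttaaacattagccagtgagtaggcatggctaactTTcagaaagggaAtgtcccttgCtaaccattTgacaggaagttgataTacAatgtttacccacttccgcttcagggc
Akr1c13: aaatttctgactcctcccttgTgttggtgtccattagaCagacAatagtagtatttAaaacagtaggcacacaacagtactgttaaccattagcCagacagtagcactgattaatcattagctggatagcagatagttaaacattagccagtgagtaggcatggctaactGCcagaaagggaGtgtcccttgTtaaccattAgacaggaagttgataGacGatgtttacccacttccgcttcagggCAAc

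The upstream regions of Akr1c12 and Akr1c13 were 92.5% identical over the aligned columns. The next closest pair was Akr1c13 with Akr1c19, at 59.0%, followed by Akr1c12 with Akr1c19, at 54.8%. Akr1c18 was 52.1% identical to its neighbour Akr1c14 and 42.3% to 45.6% identical to the other 4 genes. All 6 regions were searched on both strands for the nuclear receptor half-site AGGTCA for a pair of these half-sites in the same direction with 4 bases or with 1 base between them, and for TGACNNNGC, the core of the antioxidant response element. Both repeats contain the single half-site, so their matches are a subset of its matches. The half-site occurred in 14.0% and TGACNNNGC in 10.2% of the 32851 promoter regions of the same length, and the repeats with 4 bases and 1 base between the half-sites in 0.0152% and 0.0335%. None of the 4 motifs matched in any of the 6 regions, which says only that these letters are not in these windows.

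Over the arrays as a whole, probe set values correlated at 0.987 to 0.992 within groups and 0.983 to 0.989 between groups. Values are log2 expression from RMA, the summary method for Affymetrix arrays, and a difference of 1 is a doubling. A working background was read from 1394 odorant and vomeronasal receptor genes, whose median lay at 3.73 to 4.13 on the arrays and whose 90th percentile lay at 5.35 to 5.68. The 10 hepatocyte markers averaged 13.11 to 13.14 in double KO, 13.20 to 13.25 in SMRT KO and 13.21 to 13.28 in control livers, and 0 of them were called in any comparison by limma (at an unadjusted p below 0.05, 3 against control and 2 against SMRT KO in double KO livers). Genes were tested with limma over all 22180 genes, and a gene counted as called below an adjusted p of 0.05 (Benjamini-Hochberg).

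Akr1c18 was the only member called in the fit of all mice and genes. It encodes the hydroxysteroid dehydrogenase that inactivates progesterone and is best known from the corpus luteum of the ovary. Its log2 values were 8.74, 8.26 and 9.11 in the double KO livers, 6.74, 6.04 and 6.36 in the SMRT KO livers, and 5.94, 5.33 and 5.15 in the control livers. The groups did not overlap in any of the 3 comparisons, and the SMRT KO livers lay between the double KO and the control livers. The means were 8.70 ± 0.426 in double KO, 6.38 ± 0.351 in SMRT KO and 5.47 ± 0.411 in control livers (SD, n = 3 each). Across the 9 arrays its values spanned 3.95 log2 units, a range that 12 of 22180 genes reached, Akr1c18 included. The low end of this range, control replicate 3, lay below the 90th percentile of the receptor genes on that array (5.53). The width therefore depends on the background level.

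**Figure D1:**
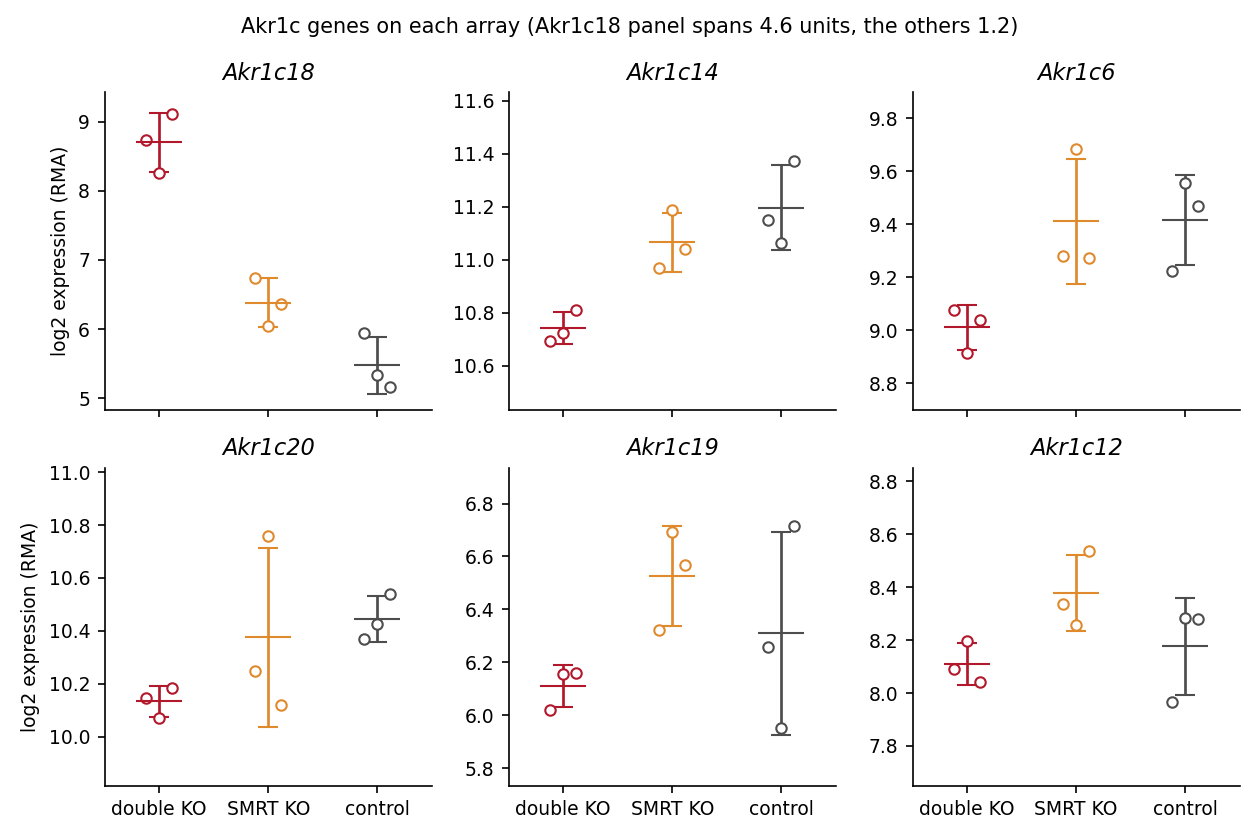
Each panel plots log2 expression (RMA) of a gene in the double KO, SMRT KO and control livers, with 1 circle per mouse and the mean ± SD as bars (n = 3 each); the Akr1c18 panel covers a wider range than the others. Akr1c18 lay at 8.26 to 9.11 in double KO livers, above the SMRT KO livers (6.04 to 6.74) and the control livers (5.15 to 5.94), while the other 5 genes had their lowest group mean in the double KO livers.

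By group means, Akr1c18 was 8.29-fold higher in double KO than in control livers when low control values were raised to the background. Each control array was taken at the 90th percentile of its receptor genes where Akr1c18 lay below it (2 of 3 control arrays). This fold makes no allowance for the spread between mice. The log2 fold change as measured was 3.23 (standard error 0.265, 95% interval 2.63 to 3.82), and 3 of 22180 genes had a larger one. The adjusted p was 0.00106 by limma. It was 1 of 6 measured members called, against 0.843% of all genes (0.523% called higher and 0.320% lower). In double KO against SMRT KO livers it rose 4.99-fold, a log2 fold change of 2.32 (standard error 0.265, 95% interval 1.72 to 2.92) with an adjusted p of 0.0044 by limma. Again it was the only member called, against 1.19% of all genes (0.748% higher and 0.437% lower). Both calls held in all 16 alternative analyses, with log2 fold changes of 3.02 to 3.46 and 2.12 to 2.54. Several alternatives could not move its fold change and altered only the test. Examples are the mean of probe sets, as Akr1c18 has a single probe set, and leaving out a mouse of the group not compared. The double KO comparisons share the double KO arrays, as both comparisons with control share the control arrays, and are not separate evidence.

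In SMRT KO against control livers Akr1c18 did not pass, with a log2 fold change of 0.91 (standard error 0.265, 95% interval 0.31 to 1.50) and an adjusted p of 0.654 by limma. It was the largest difference of the family in this comparison, and 46 genes of the whole table had a larger one, 14 of them higher and 32 lower in SMRT KO livers. Of all genes, 0.00451% were called in this comparison, and 0 of the 6 members. At an unadjusted p below 0.05 there were 1331 genes and 1 member, Akr1c18. The size of this fold also depends on the control level, because the control values of 5.15 to 5.94 lay close to the 90th percentile of the receptor genes on the same arrays (5.47 to 5.68), so that a signal over background was not established there.

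Akr1c14 had the lowest fold change of the family in double KO against control livers. It encodes the 3α-hydroxysteroid dehydrogenase of mouse liver, which reduces dihydrotestosterone and other 3-ketosteroids. Its values were 10.69, 10.72 and 10.81 in double KO livers, 10.97, 11.19 and 11.04 in SMRT KO livers, and 11.15, 11.06 and 11.37 in control livers. Every double KO liver was below every SMRT KO and every control liver, while the SMRT KO and control livers overlapped. The log2 fold change was -0.45 in double KO against control (standard error 0.0933, 95% interval -0.66 to -0.24) and did not pass, with an adjusted p of 0.07 by limma. It passed in 1 of 16 alternatives, at an adjusted p of 0.0383, when genes below the median level were left out and fewer genes were tested. In double KO against SMRT KO the log2 fold change was -0.32 (standard error 0.0933, adjusted p = 0.194 by limma), and in SMRT KO against control it was -0.13 (adjusted p = 0.909).

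Akr1c6 gave a like picture. It encodes the mouse type 5 17β-hydroxysteroid dehydrogenase, which interconverts estradiol and estrone and makes testosterone from androstenedione. Its values were 9.08, 8.91 and 9.04 in double KO livers, 9.28, 9.68 and 9.27 in SMRT KO livers, and 9.22, 9.55 and 9.47 in control livers. The double KO livers were the lowest of the 9, and the SMRT KO and control livers had nearly equal means (9.41 ± 0.236 and 9.42 ± 0.172, SD, n = 3 each). The log2 fold change was -0.41 in double KO against control (standard error 0.126, 95% interval -0.69 to -0.12, adjusted p = 0.25 by limma) and -0.40 in double KO against SMRT KO (95% interval -0.69 to -0.12, adjusted p = 0.247). Neither passed.

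Akr1c20 had values of 10.15, 10.07 and 10.18 in double KO livers, 10.25, 10.76 and 10.12 in SMRT KO livers, and 10.37, 10.43 and 10.54 in control livers. The double KO livers lay below all control livers, and SMRT KO replicate 3 lay among the double KO livers. The SMRT KO group was the widest of the 3, at 10.38 ± 0.338 (SD, n = 3). The log2 fold change in double KO against control was -0.31 (95% interval -0.63 to 0.01, adjusted p = 0.485 by limma), and in double KO against SMRT KO it was -0.24 (95% interval -0.57 to 0.08, adjusted p = 0.641). The value against SMRT KO was -0.051 without SMRT KO replicate 2.

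For Akr1c19 and Akr1c12 the double KO livers lay below all SMRT KO livers and overlapped the controls. Akr1c19 had values of 6.02, 6.16 and 6.16 in double KO livers, 6.32, 6.69 and 6.57 in SMRT KO livers, and 6.26, 5.95 and 6.72 in control livers. The control livers spanned the values of both other groups. Its log2 fold change was -0.41 in double KO against SMRT KO (95% interval -0.80 to -0.03, adjusted p = 0.434 by limma) and -0.20 in double KO against control (95% interval -0.59 to 0.19, adjusted p = 0.767). Against control the value had the opposite sign, 0.0061, without control replicate 3.

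Akr1c12 had values of 8.09, 8.20 and 8.04 in double KO livers, 8.34, 8.26 and 8.53 in SMRT KO livers, and 7.97, 8.28 and 8.28 in control livers. Its log2 fold change was -0.27 in double KO against SMRT KO (95% interval -0.51 to -0.03, adjusted p = 0.407 by limma) and -0.07 in double KO against control (adjusted p = 0.885). The probe set shared by Akr1c13 and Akr1c12 had values of 8.46, 8.45 and 8.55 in double KO livers, 8.41, 8.54 and 8.87 in SMRT KO livers, and 8.52, 8.42 and 8.67 in control livers. All 3 groups overlapped on it. Double KO livers had a log2 fold change of -0.05 against control and -0.12 against SMRT KO, with adjusted p-values of 0.942 and 0.864 by limma over all 41345 probe sets. Signal of these closely related genes cannot be assigned to one of them from this probe set, and how far probes of the other members cross-hybridise was not tested.

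Taking the 6 measured genes as a list, 1 rose, 0 fell and 5 did not pass in each double KO comparison. At an unadjusted p below 0.05 by limma there were 3 members against control, among 2389 of 22180 genes. Against SMRT KO there were 5 members, among 2323 genes. Akr1c18 was the only one of these members on the higher side. The fold change was below 0 for 5 of 6 members against control, where 48.7% of all genes were below 0, and for the same number against SMRT KO, where 49.3% of all genes were. The median log2 fold change of the list was -0.26 against control and -0.30 against SMRT KO, beside medians of 0.0036 and 0.0017 over all genes. Double KO and control livers did not overlap for 4 of the 6 members, and double KO and SMRT KO livers for 5 of 6. Over all genes the groups did not overlap in 15.0% of genes against control (7.73% higher, 7.25% lower) and in 13.8% against SMRT KO (7.54% higher, 6.21% lower). Of the members, 3 were on the lower side against control and 4 against SMRT KO, and Akr1c18 was on the higher side in both. In SMRT KO against control 3 members were above 0 and 3 below, where 49.6% of all genes were below 0, with a list median of 0.10. In that comparison the groups did not overlap for 1 member, Akr1c18, against 8.16% of all genes (3.80% higher, 4.36% lower). The mean of the hepatocyte markers was also lower in every double KO liver than in any other liver, with 8 of 10 markers below 0 against control (median log2 fold change -0.11) and 9 of 10 against SMRT KO (median -0.06). The 9 Kupffer cell and macrophage markers averaged 8.53 to 8.70 in double KO, 8.73 to 8.98 in SMRT KO and 8.52 to 8.75 in control livers. All 9 were below 0 in double KO against SMRT KO, with 0 called by limma and 4 at an unadjusted p below 0.05. All 9 were above 0 in SMRT KO against control (median log2 fold change 0.24). In double KO against control 5 were below and 4 above 0 (median -0.0003). The part of either marker list in the lower values of the 5 members was not tested. In bulk tissue, fewer cells of a type and less RNA per cell cannot be told apart.

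**Figure D2:**
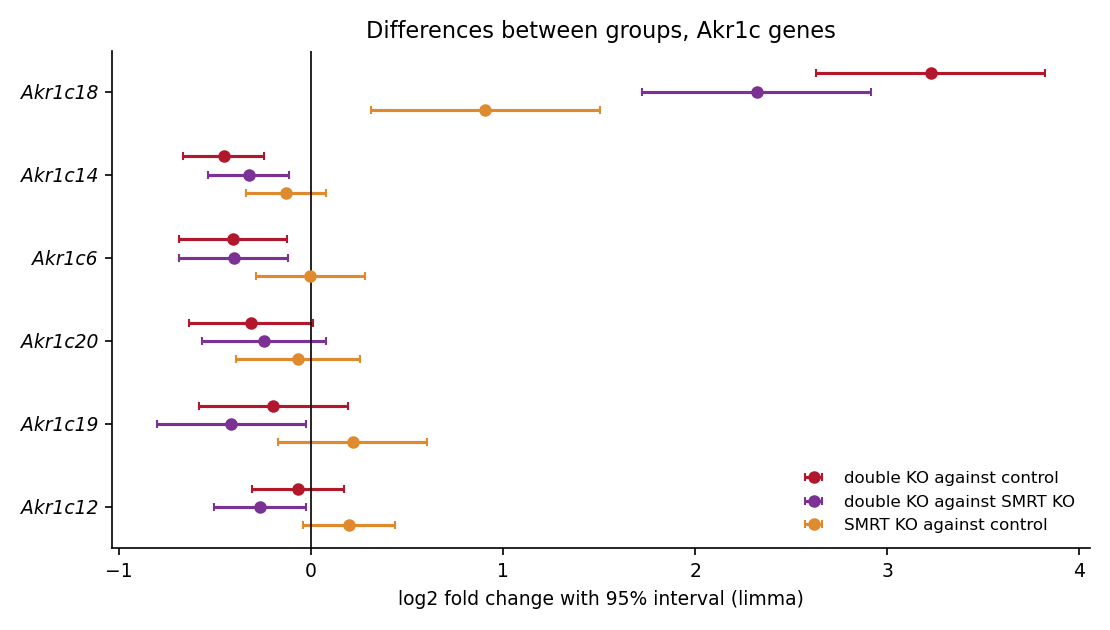
The log2 fold change (horizontal axis) of each of the 6 measured genes is drawn with its 95% interval from limma, for double KO livers against each of the other groups and for SMRT KO livers against controls. The intervals of Akr1c18 lie above 0 in all 3 comparisons (2.63 to 3.82, 1.72 to 2.92 and 0.31 to 1.50), and the fold changes of the other 5 genes lie between -0.45 and 0.22.

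The genes around the family were examined for a shift across the region. On the side of Akr1c20 the next measured genes were Akr1c21, a 3(17)α-hydroxysteroid dehydrogenase known from mouse kidney, Akr1e1, a reductase of 1,5-anhydrofructose, and the transcription factor gene Klf6. Akr1c21 lay at the background level, at 3.94 to 4.15 in double KO, 3.95 to 4.11 in SMRT KO and 4.02 to 4.11 in control livers. Akr1e1 had a log2 fold change of 0.02 in double KO against control (adjusted p = 0.966 by limma) and Klf6 had 0.17 (adjusted p = 0.809). On the side of Akr1c14 the next measured genes were Ucn3, which encodes the peptide urocortin 3, the tubulin-like gene Tubal3, and Net1. Net1 had values of 9.21 to 9.26 in double KO, 8.56 to 9.01 in SMRT KO and 8.63 to 8.82 in control livers, with no overlap of double KO with either group. Its log2 fold change was 0.51 against control (standard error 0.107, adjusted p = 0.0783 by limma) and 0.47 against SMRT KO (adjusted p = 0.0859), and neither passed. None of the 6 neighbours was called in any of the 3 comparisons.

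**Figure D3:**
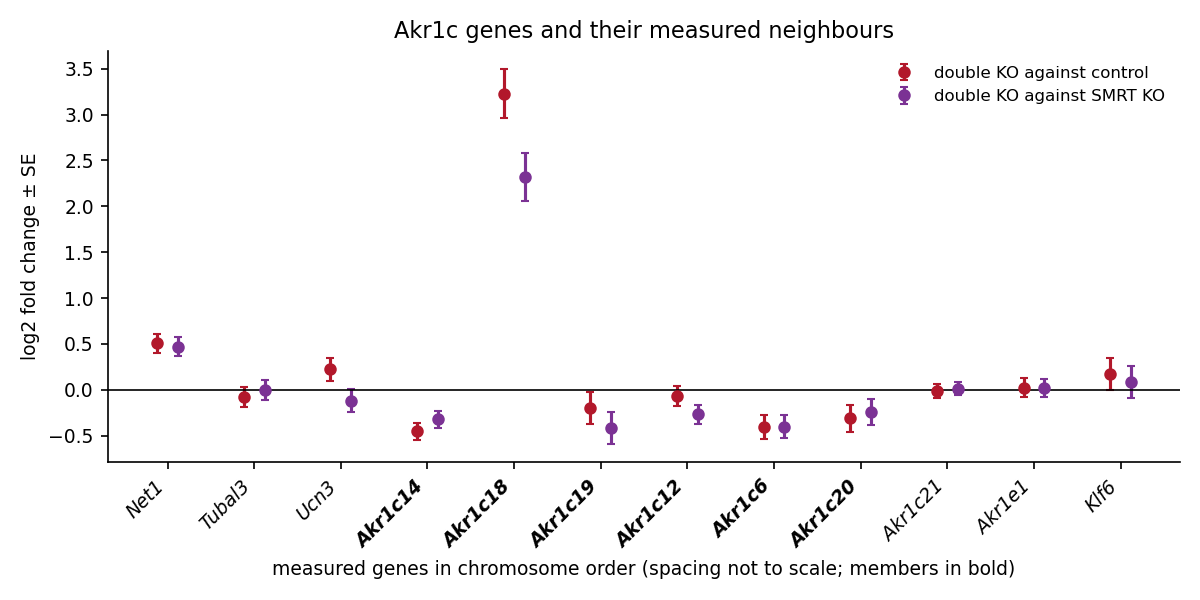
Log2 fold changes with standard errors are drawn for the 12 measured genes of the region in chromosome order, members in bold, for double KO livers against controls and against SMRT KO livers. Akr1c18 stands at 3.23 and 2.32 between Akr1c14 (-0.45 and -0.32) and Akr1c19 (-0.20 and -0.41), and among the neighbours Net1 has the highest values (0.51 and 0.47).

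Other aldo-keto reductases and other genes of steroid metabolism were counted by list. Of 8 other aldo-keto reductases measured, 0 were called in any comparison by limma, 0 also at an unadjusted p below 0.05, and the median log2 fold change in double KO against control was 0.06. Akr1b10 had the largest absolute fold change among them, with values of 6.50, 6.74 and 6.48 in double KO, 6.32, 6.11 and 6.55 in SMRT KO and 6.44, 6.14 and 6.48 in control livers (log2 fold change 0.22 against control, adjusted p = 0.615 by limma). Akr1d1, the 5β-reductase that acts on the same steroids ahead of the 3α-reductases, is on this list and had a log2 fold change of 0.15 against control (adjusted p = 0.684).

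Of 19 hydroxysteroid dehydrogenases outside the aldo-keto reductase family, 0 rose and 1 fell in each double KO comparison. The gene was Hsd3b2, of the 3β-hydroxysteroid dehydrogenase family. Its values were 8.45, 8.04 and 8.29 in double KO livers, 9.27, 9.16 and 9.41 in SMRT KO livers, and 9.51, 8.82 and 9.25 in control livers. Its log2 fold change was -0.93 in double KO against control (standard error 0.169, adjusted p = 0.0421 by limma) and -1.02 in double KO against SMRT KO (adjusted p = 0.024). The first call was lost in 9 of 16 alternatives, with an adjusted p of up to 0.174. They were the fit of the 2 groups alone and the fits that left out any mouse other than control replicate 2. The second was lost in 5 of 16, up to 0.108, without double KO replicate 2 or 3 or any SMRT KO mouse. At an unadjusted p below 0.05 by limma there were 5 genes of this list against control, all lower in double KO livers. Against SMRT KO there were 7, of both directions. Hsd3b2 is among them in each comparison. Over all 22180 genes the numbers were 2389 and 2323. Hsd3b genes are close copies of one another and their probe sets may share signal.

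Steroid sulfotransferases, which add sulfate to hydroxysteroids and so can act on products of Akr1c enzymes, had a median log2 fold change of 1.34 in double KO against control and 0.95 against SMRT KO. Of 10 measured genes 6 rose and 0 fell in each of these comparisons, and 0 were called in SMRT KO against control. Over all genes 0.523% were called higher against control and 0.748% against SMRT KO, and 0.00451% were called in SMRT KO against control. The list was chosen with earlier results of these data known, so this count is not independent support. Sult2a5 had values of 7.74, 7.24 and 7.24 in double KO, 6.16, 6.12 and 6.22 in SMRT KO and 5.80, 5.32 and 5.28 in control livers. Like Akr1c18, it was highest in double KO and lowest in control livers, with no overlap between any 2 groups. It also lay below the 90th percentile of the receptor genes on 2 of 3 control arrays. Its log2 fold change was 1.24 in double KO against SMRT KO (standard error 0.164, adjusted p = 0.00815 by limma). The other called genes were Sult1e1, Sult2a1, Sult2a3, Sult2a4 and Sult2a7. Against SMRT KO the log2 fold changes were 1.04 for Sult2a1, 2.98 for Sult2a3 and 0.85 for Sult2a4. Sult1e1 and Sult2a7 lay below the 90th percentile of the receptor genes on all 3 SMRT KO arrays. Taken against that percentile, their double KO means were 7.25-fold and 3.22-fold higher, with no allowance for the spread between mice. Against SMRT KO the count of called sulfotransferases was 3 without double KO replicate 1 or 2 or SMRT KO replicate 1, and 4 without double KO replicate 3 or SMRT KO replicate 2 or 3. Several Sult2a genes are close copies and their probe sets may share signal.

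Of 8 genes of steroid synthesis and hydroxylation and 5 steroid receptor genes, 0 were called in any comparison by limma. At an unadjusted p below 0.05 the synthesis list held 1 gene in double KO against control, 3 against SMRT KO and 2 in SMRT KO against control, and the receptor list 1, 1 and 0. Cyp17a1, the steroid 17α-hydroxylase, had values of 12.40, 12.66 and 12.57 in double KO, 11.04, 11.23 and 11.92 in SMRT KO and 11.62, 10.85 and 11.81 in control livers. The double KO livers lay above all others, with a log2 fold change of 1.11 against control (standard error 0.27, adjusted p = 0.129 by limma) and 1.15 against SMRT KO (adjusted p = 0.0999), and neither passed. The estrogen receptor gene Esr1 had a log2 fold change of 0.33 against control (adjusted p = 0.341). Of the 3 steroid 5α-reductase genes listed only Srd5a3 was measured, with a log2 fold change of 0.07 against control (adjusted p = 0.868). Cyp17a1, Star, Cyp11a1, Hsd3b1, Cyp21a1 and Cyp11b1 were also counted as markers of ovarian and adrenal steroid cells. The mean of these 6 genes was 6.31 to 6.39 in double KO, 6.10 to 6.23 in SMRT KO and 6.0 to 6.15 in control livers, and 0 were called (1 at an unadjusted p below 0.05 against control). That mean includes Cyp17a1, which had the largest fold change of the 6 genes in both double KO comparisons. No mean was taken without it, so the higher mean is not a measure of ovarian or adrenal cells. Of the markers other than Cyp17a1, which mouse liver also expresses, Cyp11a1 had a log2 fold change of -0.01, Hsd3b1 of -0.04, Cyp11b1 of 0.14, Cyp21a1 of 0.16 and Star of 0.19 in double KO livers relative to controls. Cyp11a1, Hsd3b1, Cyp11b1 and Cyp21a1 lay below the 90th percentile of the receptor genes on every array. A signal over background was not established for them, so their small fold changes do not show that they were unchanged.

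**Figure D4:**
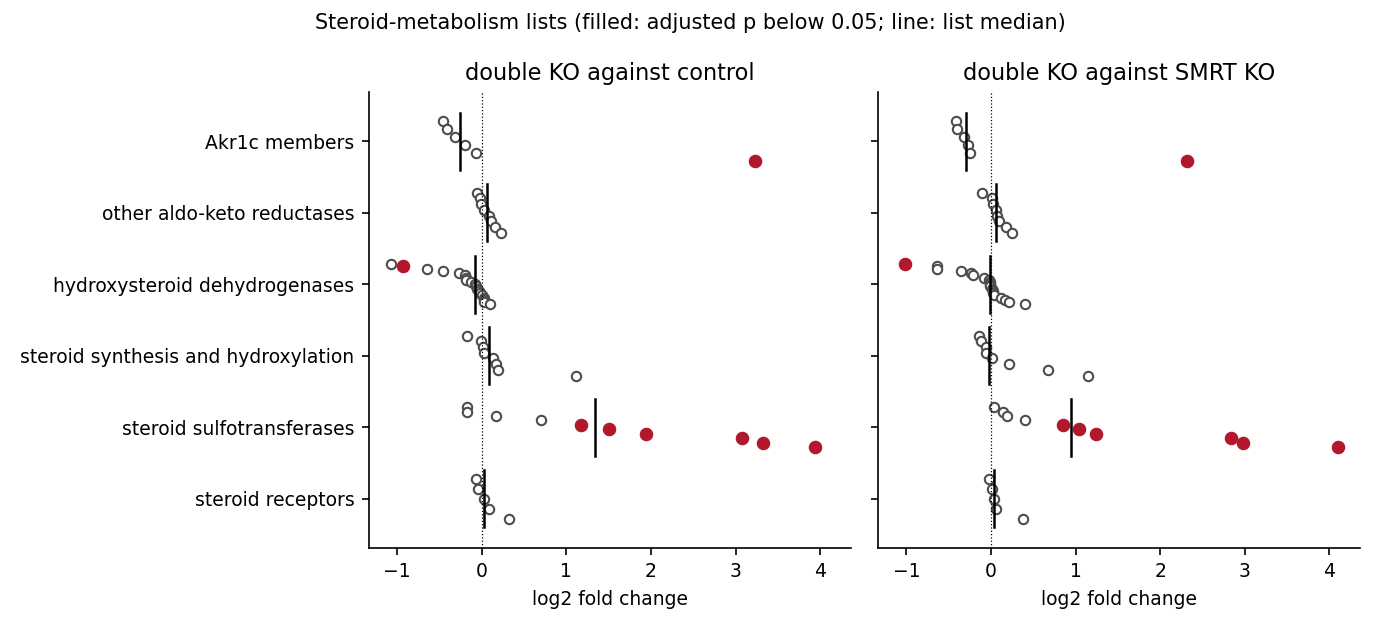
Each circle is a measured gene, placed by its log2 fold change (horizontal axis) for double KO livers, against controls on the left and against SMRT KO livers on the right, with filled circles below an adjusted p of 0.05 and a line at the list median. In both panels 1 of 6 Akr1c genes and 6 of 10 sulfotransferases are filled on the higher side, and 1 of 19 hydroxysteroid dehydrogenases on the lower side.

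The genes with profiles most like that of Akr1c18 were found by Pearson correlation of log2 values over the 9 arrays, among 972 genes outside the family with a range of at least 1 log2 unit. The arrays form 3 groups, so the correlation mostly reflects the order of the group means. The 5 highest were Acot1, a cytosolic acyl-CoA thioesterase (r = 0.976), Pla2g6, a calcium-independent phospholipase A2 (0.975), Dnah11, a dynein heavy chain (0.973), Sult2a5 (0.967) and Acot2, the mitochondrial thioesterase (0.958). Acot1 had 9.25 to 9.87 in double KO, 7.50 to 8.29 in SMRT KO and 7.30 to 7.70 in control livers. Dnah11 had 7.21 to 7.35 in double KO, 6.27 to 6.52 in SMRT KO and 6.07 to 6.22 in control livers. Both had their highest values in the double KO livers, and the SMRT KO and control livers of Acot1 overlapped while those of Dnah11 did not. Sult2a4 and Sult2a1 followed at ranks 8 and 15 of the 972 genes (r = 0.950 and 0.932). The other called sulfotransferases, Sult2a3, Sult2a7 and Sult1e1, stood at ranks 39, 42 and 67 (r = 0.887, 0.872 and 0.835). The 5 lowest were Lrrc3 (-0.932), the metalloproteinase gene Adamts7 (-0.930), Fcna, which encodes a ficolin of the lectin complement pathway (-0.928), Lrat, which esterifies retinol (-0.925), and Dpy19l1 (-0.921). Lrat had 6.97 to 7.19 in double KO, 8.79 to 9.09 in SMRT KO and 8.68 to 9.13 in control livers.

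**Figure D5:**
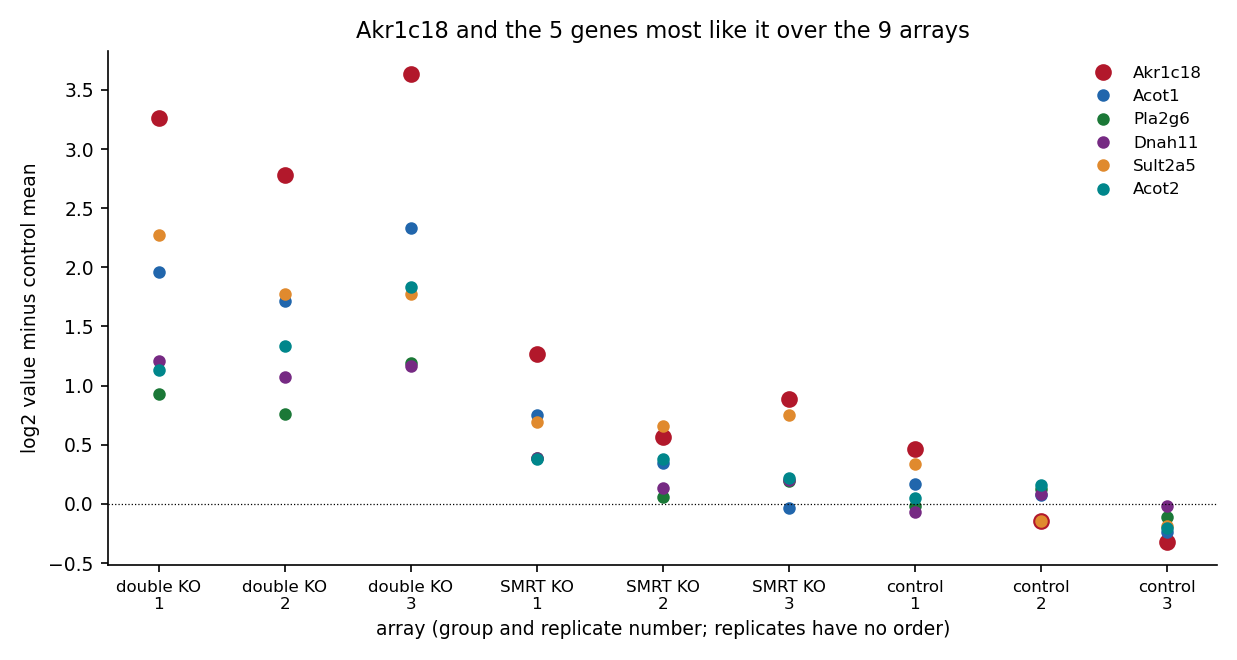
Log2 values minus the control mean (vertical axis) are drawn on each of the 9 arrays for Akr1c18 and the 5 genes with the highest correlation to it. All 6 genes lie higher on the 3 double KO arrays than on any SMRT KO or control array. The 5 genes were chosen on these same arrays, so a shared pattern was built into the choice.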

How the data were processed

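Liver RNA of 9 mice was hybridised to Affymetrix whole-transcript arrays after amplification of 200 ng, per the labels' protocols. The deposited table holds log2 values, which the authors made with RMA (version and build not given in the sources used here), per the submitters' processing notes. RMA normalizes arrays together, so a shift common to most genes would be removed. Of 41345 probe sets, 23521 had 1 symbol in the platform annotation, 1814 several, and 16010 were not listed. The probe set with the highest mean stood for each of 22180 genes, with no filter on level. limma 3.58.1 in R 4.3.3 fitted the 3 group means over all 9 arrays without a block (6 residual and 3.36 prior degrees of freedom), with two-sided tests and Benjamini-Hochberg adjustment over all genes within a contrast. The steps were tested on simulated data. The number of arrays limits the precision. The labels call the mice individual animals. Promoter regions came from RefSeq (GRCm38.p6) and were aligned globally with Biopython 1.88.

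Members, lists and tests were chosen with earlier results of these data known. All measured members were named, with called genes of the steroid lists, otherwise the member of a list with the largest absolute fold change, the 3 measured neighbours on each side, and the 5 genes with the highest and lowest correlation to the member of widest range. Akr1d1, Esr1, Cyp17a1 and the ovarian and adrenal markers were named as members of fixed lists. Alternatives were fits of 2 groups, a replicate block, each mouse left out, cyclic loess, median centring, dim genes left out, a trended robust prior and the mean of probe sets. A permutation test of 3 mice against 3 was not used. Groups were taken from the sample titles and 0 columns were left over.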

Additional observations from a re-analysis of the deposited data

How the results depend on the processing

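Of 285 comparisons of a member's fold change with an alternative, 277 kept direction and side of the threshold, 1 passed where it had not before (Akr1c14 with dim genes left out) and 7 changed sign, all in results that did not pass. Some alternatives, such as the mean of probe sets, could not move a member's fold change, so in those the direction was kept by design. The sign changes were Akr1c19 in double KO against control without control replicate 3 (0.0061; range over mice left out -0.38 to 0.0061), Akr1c20 in SMRT KO against control without SMRT KO replicate 3 (0.058; range -0.26 to 0.058), and Akr1c6 in the same comparison after cyclic loess (0.0077) and when any of 4 mice was left out, namely control replicate 2 (0.065) or 3 (0.023) and SMRT KO replicate 1 (0.061) or 3 (0.067; range -0.14 to 0.067). The cause was not tested. Called members stayed at 1, 1 and 0 in double KO against control, double KO against SMRT KO and SMRT KO against control under the other alternatives, and at 2 in the first with dim genes left out, where 11090 genes were tested. Leaving out a mouse gave 1 called member in each double KO comparison and 0 in SMRT KO against control. Over all genes, calls in these comparisons numbered 187, 263 and 1 with all mice, 109, 124 and 0 with only the 2 groups, and 61 to 179, 101 to 234 and 0 to 23 with a mouse left out, where fewer samples were fitted. In SMRT KO against control 2 genes were called with dim genes left out.

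The replicate numbers shared by the groups gave no clear sign of paired mice, though pairing of small effect could go unseen. Deviations from the group means correlated at -0.085 to 0.117 over the 9 same-numbered pairs, and an array correlated best with its own number in 8 of 18 cases. With the replicate number as a block, calls over all genes numbered 152, 195 and 2, called members were unchanged at 1, 1 and 0, and Sult2a1 lost its call in double KO against SMRT KO. With dim genes left out, 4 of 5 sulfotransferases still tested were called against control and 3 of 5 against SMRT KO. Alternatives for the called genes of the steroid lists were added after seeing the data. Besides the losses given for Hsd3b2, Sult2a1 lost its call in 1 alternative against control and 8 against SMRT KO (adjusted p up to 0.146), Sult2a3 in 4 (0.0823) and Sult2a4 in 6 (0.0953) against SMRT KO. Signal over background limits Akr1c18 and Sult2a5 in control livers, and Sult1e1 and Sult2a7 in SMRT KO and control livers.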
